A study of Mus musculus with 24 samples.

Results

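The Notch pathway genes described here are 35 genes of the mouse that encode the receptors, ligands, processing enzymes, nuclear partners, cytoplasmic regulators and target genes of Notch signalling. They were found by gene symbol, and all 35 were present, with 1 row each, among the 34745 genes of the deposited expression table. RNA-seq had been carried out with 12 whole 129/DBA hybrid E13.5 embryos, which fall into 2 groups of 6 with 1 library per embryo. *Zfp57* encodes a zinc finger protein that maintains DNA methylation at imprinting control regions. The M-Z+ embryos (*Zfp57*-/+) lacked maternal *Zfp57* but had inherited a wild-type paternal copy, and the M-Z- embryos (*Zfp57*-/-) lacked the maternal and the zygotic gene alike. Loss of maternal *Zfp57* was thus shared by both groups, and no library of an embryo with maternal *Zfp57* was analysed here. The embryos were derived from *Zfp57*-/- 129 female mice crossed with *Zfp57*+/- (DBA*) male mice. The labels give no sex, litter or batch, and sex was not read from the counts, so none of these was separated from the genotype. A whole embryo mixes many tissues, and fewer cells of a type and less RNA per cell cannot be told apart in such a library.

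Notch signalling passes between neighbouring cells. A Delta-like or Jagged ligand on the surface of a cell binds a Notch receptor on the next cell, a metalloprotease and then γ-secretase cut the receptor, and the released intracellular domain enters the nucleus. There it joins RBPJ and a Mastermind-like coactivator and turns on several *Hes* and *Hey* genes, which encode transcriptional repressors. In the midgestation embryo the pathway is best known for holding neural progenitors back from becoming neurons, for segmenting the somites and for shaping arteries.

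Total counts on genes per library ranged from 12347383 to 19216288 in the M-Z+ embryos and from 12005145 to 14617373 in the M-Z- embryos. Values per embryo are given as CPM, a count scaled to a common library size by TMM in edgeR. Levels of different genes are compared as TPM, which also allows for gene length. *Zfp57* itself averaged 27.1 ± 8.25 CPM (SD, n = 6) among M-Z+ and 24.5 ± 4.17 CPM (SD, n = 6) among M-Z- libraries, with a two-sided exact permutation p of 0.532. The deleted part of the mutant allele is not given in the sources used here and the count covers the whole gene, so it does not check the genotype labels, and the groups are called by those labels.

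RBPJ, the DNA-binding partner of the Notch intracellular domain, recognises GTGGGAA. This motif was looked for on either strand of the promoter windows of RefSeq (GRCm38.p6), each 300 bases long from 250 bases before the start of a gene to 50 bases after it. A window was found for 30 of the 35 genes, and 6 of these 30 held the motif (*Hes5*, *Hey2*, *Hes7*, *Lfng*, *Psen2* and *Aph1a*). The other 5 of the 35 could not be searched, so a gene not named here may lack the motif or lack a window. The 30 genes have 38 windows in all, since some have several starts. The motif was in 6 of the 38 (15.8%), beside 6.38% of all 32851 windows. *Hes5* and *Hey2* are shown because they are the target genes with 2 matches each, and *Hes5* is also the gene with the lowest fold change among the 34 tested. The *Hes5* window lies at chr4:154960673-154960972 on the plus strand, with matches that begin at -226 and -83 from the start. The *Hey2* window lies at chr10:30842734-30843033 on the minus strand, with matches that begin at -207 and -4. In both, capitals mark GTGGGAA or its reverse complement TTCCCAC, read 5′ to 3′ along the gene.
Hes5: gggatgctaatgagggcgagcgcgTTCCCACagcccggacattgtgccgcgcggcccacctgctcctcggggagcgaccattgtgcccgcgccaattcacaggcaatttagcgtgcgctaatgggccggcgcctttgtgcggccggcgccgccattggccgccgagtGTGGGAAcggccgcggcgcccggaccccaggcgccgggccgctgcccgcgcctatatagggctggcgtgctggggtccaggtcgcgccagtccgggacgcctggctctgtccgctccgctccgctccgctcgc
Hey2: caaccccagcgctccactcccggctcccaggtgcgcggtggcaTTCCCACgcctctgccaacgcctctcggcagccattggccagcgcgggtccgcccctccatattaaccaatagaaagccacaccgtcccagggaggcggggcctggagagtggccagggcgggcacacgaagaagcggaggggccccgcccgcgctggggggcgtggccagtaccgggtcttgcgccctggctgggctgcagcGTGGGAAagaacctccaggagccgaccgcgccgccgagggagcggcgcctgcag
The first match in each window lies on the opposite strand and the second on the strand of the gene. The matches are given as a description of the reference sequence, since no measurement of RBPJ binding was analysed here. The motif can overlap the E-box CACGTG, which Hes and Hey proteins and other basic helix-loop-helix proteins can bind and which 7.15% of all windows held. It did so in the *Lfng* window.

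All 7 roles of the pathway were expressed at E13.5. The mean level over the 12 embryos ranged from 1.17 TPM for *Hes7* to 85.7 TPM for *Adam10*, with a median of 23.8 TPM over the 35 genes. Of the 35 genes, 34 passed the filter on low counts. *Hes7*, an oscillating repressor of the somite clock, was left out with 3 to 19 counts per embryo. The presomitic mesoderm, where that clock runs, was also scarcely represented in these libraries. Only 2 of its 6 listed markers passed the filter, the summed level of all 6 was 2.10 to 4.90 CPM per embryo, and *Msgn1* had no count in any embryo. Markers of the other tissues all passed the filter, among them those of heart muscle (265 to 498 CPM in sum) and liver (2556 to 6740 CPM in sum).

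Among the receptors, *Notch3* had the highest level, 69.9 ± 11.2 TPM, followed by *Notch2* with 60.7 ± 13.4 TPM (SD, n = 12), a difference smaller than their spread. *Notch1* followed with 29.1 ± 6.70 TPM, and *Notch4*, which is largely restricted to endothelium, was far below the other receptors with 4.46 ± 0.82 TPM. None of the ligands was above *Notch1* in level. *Jag2* with 28.1 ± 2.53 TPM and *Jag1* with 27.2 ± 6.58 TPM did not differ beyond their spread, and *Dll1* (16.3 ± 4.24 TPM), *Dll3* (10.1 ± 2.62 TPM) and *Dll4* (9.61 ± 1.58 TPM) were lower. *Adam10*, the metalloprotease that makes the first cut after a ligand binds, and *Ncstn*, the nicastrin subunit of γ-secretase with 70.2 ± 4.20 TPM, were the most abundant enzymes. *Psen2*, an alternative catalytic subunit of γ-secretase, was the least abundant enzyme with 4.66 ± 0.57 TPM. Among the targets, *Nrarp* (58.8 ± 5.26 TPM), whose product limits Notch activity as a feedback inhibitor, and *Hes6* (55.8 ± 5.53 TPM), whose product opposes HES1, came first. *Hes1* (36.6 ± 5.50 TPM) and *Hes5* (33.7 ± 7.87 TPM), the main effectors in neural progenitors, overlapped in level. *Hey1* (22.3 ± 2.30 TPM), *Hey2* (21.7 ± 2.81 TPM) and *Heyl* (21.1 ± 2.28 TPM) were alike within their spread.

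**Figure D1:**
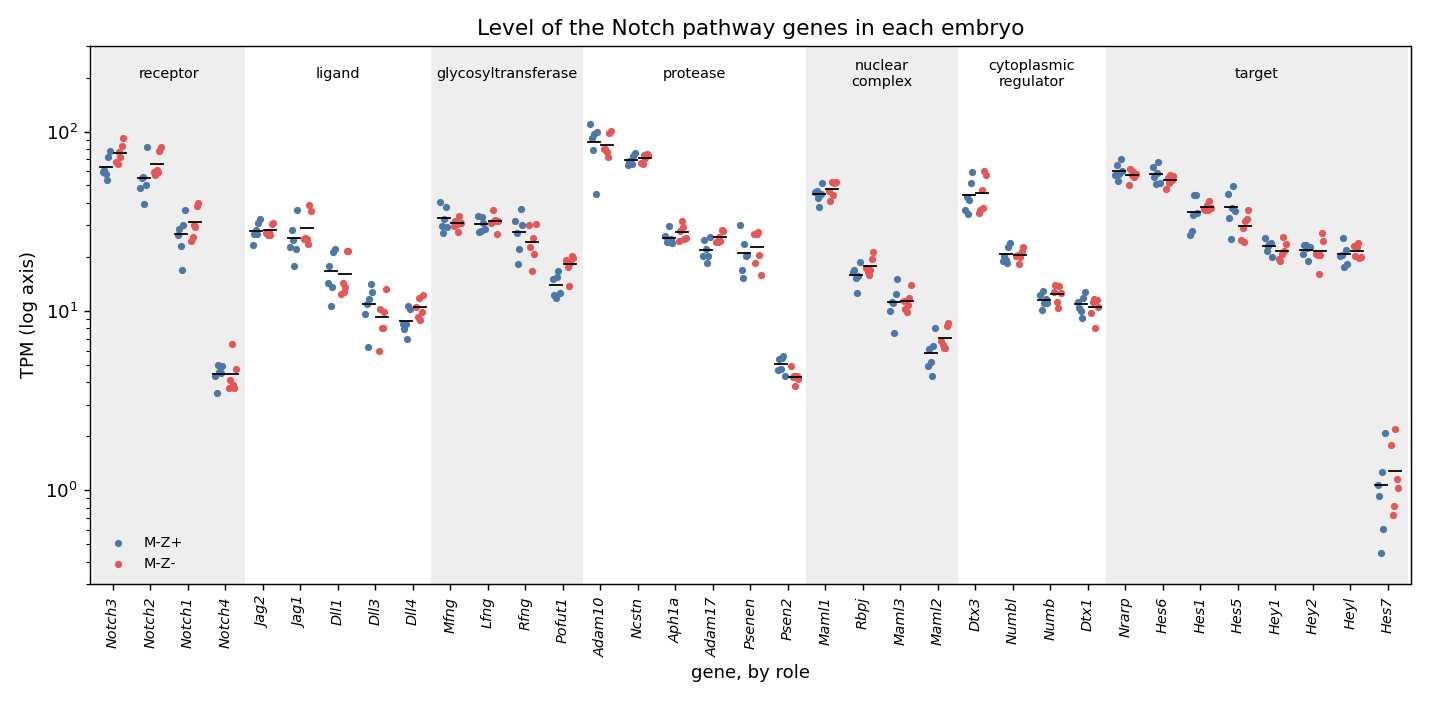
Level of each of the 35 genes in TPM (vertical log axis) in the 6 M-Z+ embryos (blue points) and the 6 M-Z- embryos (red points), with genes grouped by role and black bars at the group means. The highest mean is that of *Adam10* (85.7 TPM), the lowest that of *Hes7* (1.17 TPM), and the red and blue points of a gene lie closer together than the levels of most genes do.

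Expression was compared between M-Z- and M-Z+ embryos to see whether loss of zygotic *Zfp57*, on top of the maternal loss, came with a difference in expression of the Notch pathway. None of the 34 tested genes was called changed, that is, none had an adjusted p below 0.05 in edgeR's quasi-likelihood test together with a log2 fold change beyond 0.5. Over all 16026 tested genes 13 were called, or 0.0811%, of which 7 were higher and 6 were lower in M-Z- embryos. The lowest adjusted p among the 34 was 0.685 with edgeR and 0.337 with DESeq2, which also called none. At an unadjusted edgeR p below 0.05 there were 5 of the 34 genes (14.7%), beside 6.70% of all tested genes. *Notch3*, *Pofut1* and *Adam17* were higher and *Psen2* and *Hes5* were lower in M-Z- embryos, and none of them held after adjustment over all genes.

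The log2 fold changes of M-Z- over M-Z+ embryos ran from -0.39 for *Hes5* to 0.33 for *Pofut1*, with 17 genes above 0 and 17 below. Their median was 0.0029, beside -0.0072 over all tested genes. The standard errors of the 34 genes were 0.060 to 0.211. The 95% interval lay wholly between -0.5 and 0.5 for 25 of the 34 genes (73.5%), beside 62.6% of all tested genes, so for these a change of that size was outside the interval. It reached past 0.5 in either direction for *Notch1*, *Notch2*, *Dll3*, *Rfng*, *Pofut1*, *Psen2*, *Psenen*, *Maml2* and *Hes5*. For these 9 genes a change of that size was neither called nor outside the interval.

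**Figure D2:**
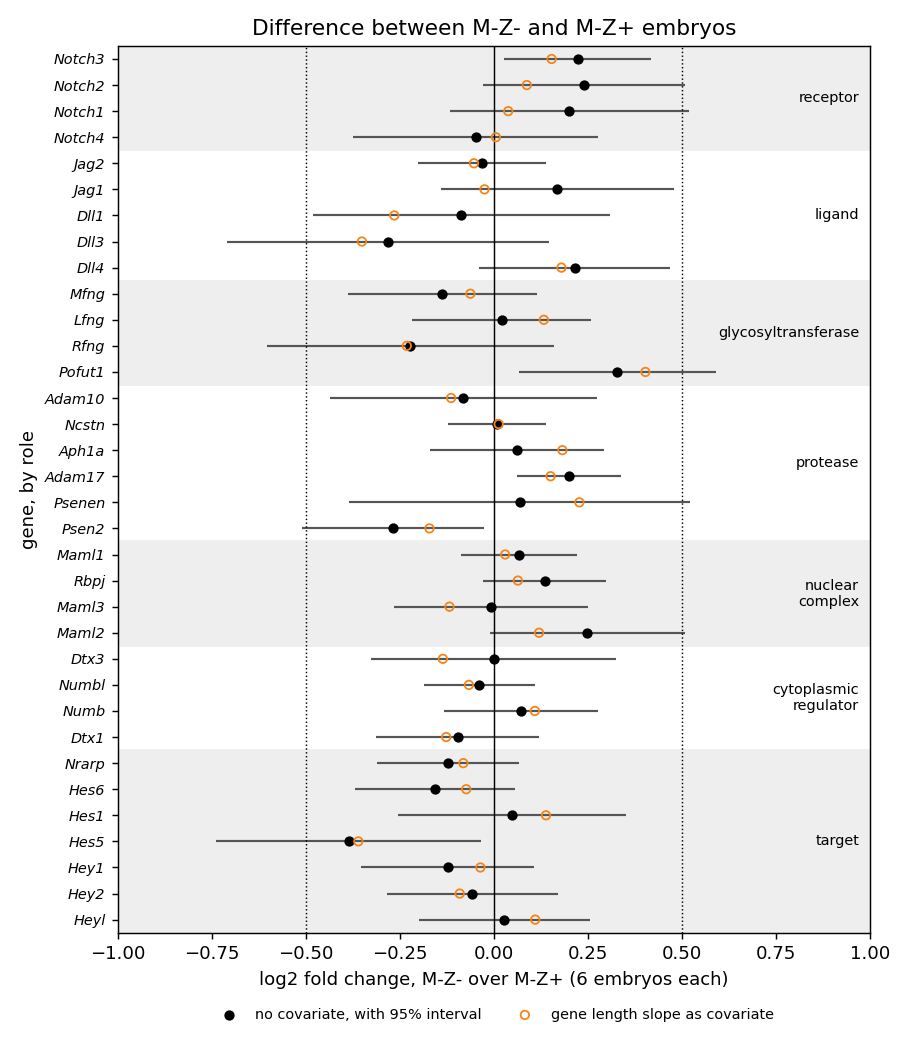
Log2 fold change of M-Z- over M-Z+ embryos (6 each) for the 34 tested genes by role, with 95% intervals (black), and the same from the fit with the length slope of the libraries as a covariate (open orange circles). Dotted lines mark -0.5 and 0.5. Every black point lies between -0.39 and 0.33, and the circles of *Notch1*, *Notch2* and *Notch3* lie nearer to 0 than their black points.

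Of the 4 receptors, *Notch1*, *Notch2* and *Notch3* were 0.20 to 0.24 higher on the log2 scale in M-Z- embryos and *Notch4* was at -0.05, with no call. The median of the 4 was 0.21. *Notch1*, the receptor of neural progenitors and arteries, ranged from 81.8 to 151 CPM with a median of 123 in M-Z+ embryos and from 109.6 to 169 CPM with a median of 135 in M-Z- embryos. The groups overlapped over most of their range, with 2 M-Z- embryos above every M-Z+ embryo. Its log2 fold change was 0.20 (SE 0.15, adjusted edgeR p 0.757), and it was 0.11 without M-Z+ 4. *Notch3*, the receptor of the mural cells that wrap vessels, ranged from 133 to 171 CPM with a median of 137 in M-Z+ embryos and from 151 to 197 CPM with a median of 172 in M-Z- embryos. Of the 6 M-Z- embryos, 3 lay above every M-Z+ embryo and all 6 lay above the M-Z+ median. Its log2 fold change was 0.22 (SE 0.09, unadjusted p 0.029 and adjusted p 0.744 with edgeR). *Notch2* was at 0.24 (SE 0.13) and all 6 M-Z- embryos lay above the M-Z+ median. *Notch4* ranged from 11.7 to 17.2 CPM with a median of 16.03 in M-Z+ embryos and from 12.1 to 22.7 CPM with a median of 13.9 in M-Z- embryos. A single M-Z- embryo was far above the other 11, and the log2 fold change was -0.05 (SE 0.15).

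The markers of mural cells were themselves higher in M-Z- embryos. All 6 listed markers were tested, none was called, and 2 were higher at an unadjusted p below 0.05. Their summed level was 467 to 538 CPM in M-Z+ and reached from 504 to 550.5 CPM in M-Z- embryos. Their mean log2 level was 0.14 higher in M-Z- embryos, with an exact permutation p of 0.019, or 0.136 after adjustment over the 7 marker lists compared. The part of this difference in that of *Notch3* was not tested. *Heyl*, a Notch target of smooth muscle, was at 0.03 (SE 0.11).

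The differences of *Notch1* and *Notch2*, and less so that of *Notch3*, became smaller when a property of the libraries entered the fit. For each library a slope of log2 expression on gene length was computed, which is positive where long genes are high relative to the other libraries. The slope averaged -0.025 in M-Z+ and 0.025 in M-Z- embryos, a difference of 0.051 per doubling of length (exact permutation p 0.195). The highest 3 slopes belonged to M-Z+ 6 (0.106), M-Z- 5 (0.098) and M-Z- 6 (0.108). These same 3 libraries also held the highest 3 values of *Notch1*, *Notch2*, *Jag1*, *Rbpj* and *Maml2*. For *Notch3*, M-Z- 3 took the place of M-Z+ 6 among the highest 3. The library with the lowest slope, M-Z+ 4 (-0.126), held the lowest value of 9 of the 34 genes, among them *Notch1*, *Notch2*, *Jag1*, *Rbpj* and all 3 Mastermind-like genes. With the slope as a covariate the log2 fold change was 0.04 for *Notch1*, 0.09 for *Notch2*, 0.15 for *Notch3* and 0.00 for *Notch4*, and the median of the receptors was 0.06. The slope was computed from the same counts, and its mean was not equal in the groups. A property of the libraries and the genotype therefore cannot be told apart by this fit. The covariate did not only shrink differences. It moved 24 of the 34 log2 fold changes by over 1.5 times, and 13 of these became larger in size, among them *Dll1* (-0.27), *Dtx3* (-0.14), *Maml3* (-0.12), *Lfng* (0.13), *Aph1a* (0.18) and *Psenen* (0.23).

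Across genes, the log2 fold change went with gene length at r = 0.48 over the 34 genes and at r = 0.25 over all 16026 genes, with gene lengths that run from 0.648 to 20.5 kb among the 34. These genes share their libraries and are not independent. The 9 genes of at least 10 kb had a median log2 fold change of 0.20, and the 6 genes under 3 kb had a median of -0.02. With the slope as a covariate these medians were 0.06 and 0.02. In that fit r was 0.22 over the 34 genes and -0.0021 over all 16026 genes. The 9 long genes were *Notch1*, *Notch2*, *Notch4*, *Pofut1*, *Adam17*, *Rbpj*, *Maml2*, *Maml3* and *Numbl*, whereas the 8 targets were 1.62 to 5.30 kb long.

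**Figure D3:**
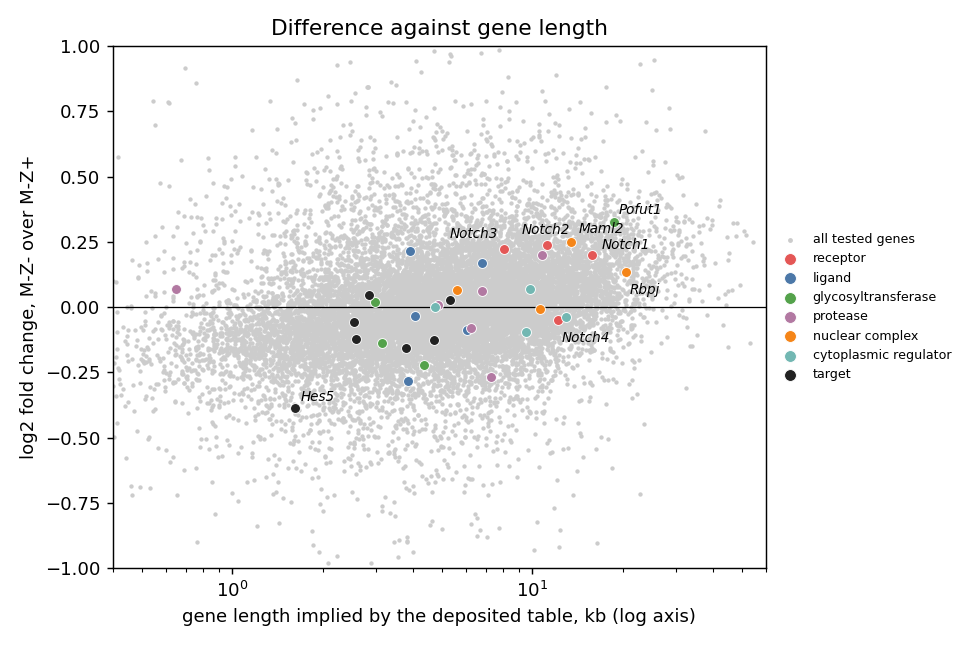
Log2 fold change of M-Z- over M-Z+ embryos against the gene length implied by the deposited table, in kb on a log axis, for all tested genes (grey) and the 34 Notch pathway genes coloured by role. The vertical axis is limited to -1 and 1 and the horizontal axis to 0.4 and 60 kb, and 108 of the 16026 genes lie outside. *Notch1*, *Notch2*, *Notch3* and *Maml2* lie above 0 at 8 kb and more, and the targets lie below 6 kb with a median of -0.12.

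None of the 5 ligands was called, and their median log2 fold change was -0.03. *Dll1*, the Delta-like ligand of neurogenesis and somites, ranged from 18.2 to 37.9 CPM with a median of 27.4 in M-Z+ embryos and from 21.1 to 35.2 CPM with a median of 24.2 in M-Z- embryos. All M-Z- embryos lay within the M-Z+ range, and the log2 fold change was -0.09 (SE 0.18), or -0.27 with the slope as a covariate. *Dll4*, the Delta-like ligand of arterial endothelium and vessel sprouts, ranged from 8.36 to 12.3 CPM with a median of 9.59 in M-Z+ embryos and from 10.1 to 13.2 CPM with a median of 10.99 in M-Z- embryos. All 6 M-Z- embryos lay above the M-Z+ median and the groups overlapped, with a log2 fold change of 0.21 (SE 0.12, unadjusted p 0.093 with edgeR). *Jag1*, a ligand with roles in vessels, liver bile ducts and the inner ear, ranged from 37.4 to 65.7 CPM with a median of 46.6 in M-Z+ embryos and from 46.2 to 71.7 CPM with a median of 48.9 in M-Z- embryos. Its values were high in 3 libraries, those of the highest length slopes, and its log2 fold change of 0.17 (SE 0.14) was -0.03 with the slope as a covariate. *Dll3*, a Delta-like protein that acts within the cell that makes it and limits Notch signalling, was at -0.28 (SE 0.20), and *Jag2* was at -0.03 (SE 0.08).

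Sugars added to the receptor shape its response to each kind of ligand. *Pofut1*, whose product adds the O-linked fucose on which Fringe enzymes build, ranged from 61.5 to 92.4 CPM with a median of 72.6 in M-Z+ embryos and from 73.5 to 101 CPM with a median of 98.3 in M-Z- embryos. Of the 6 M-Z- embryos, 5 lay above every M-Z+ embryo. The log2 fold change was 0.33 (SE 0.12, unadjusted p 0.018 and adjusted p 0.744 with edgeR), the highest of the 34 though smaller in size than that of *Hes5*, and 0.40 with the length slope as a covariate. The Fringe genes were at 0.02 for *Lfng*, -0.14 for *Mfng* and -0.22 for *Rfng*, with standard errors of 0.11, 0.12 and 0.18.

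Among the 6 genes of the proteases, only *Adam17* had groups that did not overlap. It encodes a metalloprotease that sheds many surface proteins and can cut Notch in place of ADAM10. *Adam17* ranged from 61.4 to 73.1 CPM with a median of 66.5 in M-Z+ embryos and from 73.2 to 81.6 CPM with a median of 78.1 in M-Z- embryos. The highest M-Z+ embryos and the lowest M-Z- embryo were almost at the same level, and the spread within each group was small (4.87 and 3.36 CPM, SD). The log2 fold change was 0.20 (SE 0.06, unadjusted p 0.0079 and adjusted p 0.685 with edgeR), or 0.15 with the length slope as a covariate. The two-sided exact permutation p was 0.0022, the smallest that 6 against 6 embryos can give. *Adam17* was the only tested gene of the 34 without overlap, beside 0.574% of all tested genes. It shares part of its locus with *Iah1*, and reads could have been divided between them. *Adam10* was at -0.08 (SE 0.16), and between -0.22 and -0.0045 when 1 embryo was left out.

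None of the γ-secretase subunits was called. *Psen2* ranged from 8.34 to 12.3 CPM with a median of 10.4 in M-Z+ embryos and from 7.999 to 10.1 CPM with a median of 8.67 in M-Z- embryos. All 6 M-Z- embryos lay below the M-Z+ median, and the log2 fold change was -0.27 (SE 0.11, unadjusted p 0.033 and adjusted p 0.744 with edgeR). *Ncstn*, with the smallest standard error of the 34 genes, was at 0.01 (SE 0.06). *Aph1a*, a scaffold subunit, was at 0.06 (SE 0.11), and *Psenen*, an activating subunit with only 37 to 87 counts per embryo, was at 0.07 (SE 0.21).

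In the nuclear complex, *Rbpj* was at 0.13 (SE 0.08) and all 4 genes were within 0.25 of 0. *Maml2*, a coactivator, ranged from 17.9 to 28.3 CPM with a median of 21.3 in M-Z+ embryos and from 23.96 to 30.6 CPM with a median of 25.3 in M-Z- embryos. All 6 M-Z- embryos lay above the M-Z+ median and 2 above every M-Z+ embryo. Its log2 fold change was 0.25 (SE 0.12, unadjusted p 0.059 with edgeR), and 0.12 with the length slope as a covariate. *Maml1* was at 0.07 (SE 0.07) and *Maml3* at -0.01 (SE 0.12).

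The cytoplasmic regulators had the narrowest span of log2 fold changes, -0.10 to 0.07. *Dtx1*, a Deltex ubiquitin ligase that binds the receptor, ranged from 26.9 to 33.6 CPM with a median of 29.3 in M-Z+ embryos and from 22.02 to 31.6 CPM with a median of 28.1 in M-Z- embryos. The groups overlapped, with 3 M-Z- embryos below every M-Z+ embryo and 3 above the M-Z+ median, and the log2 fold change was -0.10 (SE 0.10). *Numb* and *Numbl*, whose products inhibit Notch in dividing progenitors, were at 0.07 (SE 0.09) and -0.04 (SE 0.07). *Dtx3*, another Deltex family member, was at -0.0014 (SE 0.15).

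Of the 7 tested targets, 5 were below 0 and 2 above, with a median log2 fold change of -0.12, or -0.07 with the length slope as a covariate, and none was called. *Hes6*, whose product opposes HES1, is counted among the 5. Whether each target answers to Notch in these embryos was not tested. *Hes5* ranged from 11.6 to 23.99 CPM with a median of 17.1 in M-Z+ embryos and from 11.2 to 15.9 CPM with a median of 13.8 in M-Z- embryos. All 6 M-Z- embryos lay below the M-Z+ median, but only 2 lay below every M-Z+ embryo, and the M-Z+ embryos were more widely spread (SD 4.56 and 1.89 CPM). Its log2 fold change was -0.39 (SE 0.16, unadjusted p 0.033 and adjusted p 0.744 with edgeR), and the exact permutation p was 0.069. *Hes1* ranged from 21.7 to 39.2 CPM with a median of 27.2 in M-Z+ embryos and from 28.6 to 31.6 CPM with a median of 29.9 in M-Z- embryos. Its means were close, with a log2 fold change of 0.05 (SE 0.14), while the SD among M-Z+ embryos was 7.495 CPM and that among M-Z- embryos 1.16 CPM. This difference in spread was not tested.

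*Hey1*, a target in heart, vessels and brain, ranged from 24.7 to 35.1 CPM with a median of 32.0 in M-Z+ embryos and from 25.2 to 34.8 CPM with a median of 27.4 in M-Z- embryos. The M-Z- values lay within the M-Z+ range, with 5 of 6 below the M-Z+ median, and the log2 fold change was -0.12 (SE 0.11). *Hey2*, which marks arteries and the compact layer of the heart ventricle, ranged from 14.4 to 17.5 CPM with a median of 15.9 in M-Z+ embryos and from 11.7 to 18.7 CPM with a median of 14.98 in M-Z- embryos. The M-Z- embryos reached past the M-Z+ range at either end, and the log2 fold change was -0.06 (SE 0.11). *Hes6* was at -0.16 (SE 0.10) with all 6 M-Z- embryos below the M-Z+ median, and *Nrarp* was at -0.12 (SE 0.09). The 2 promoters printed above thus belong to genes with log2 fold changes of -0.39 and -0.06.

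**Figure D4:**
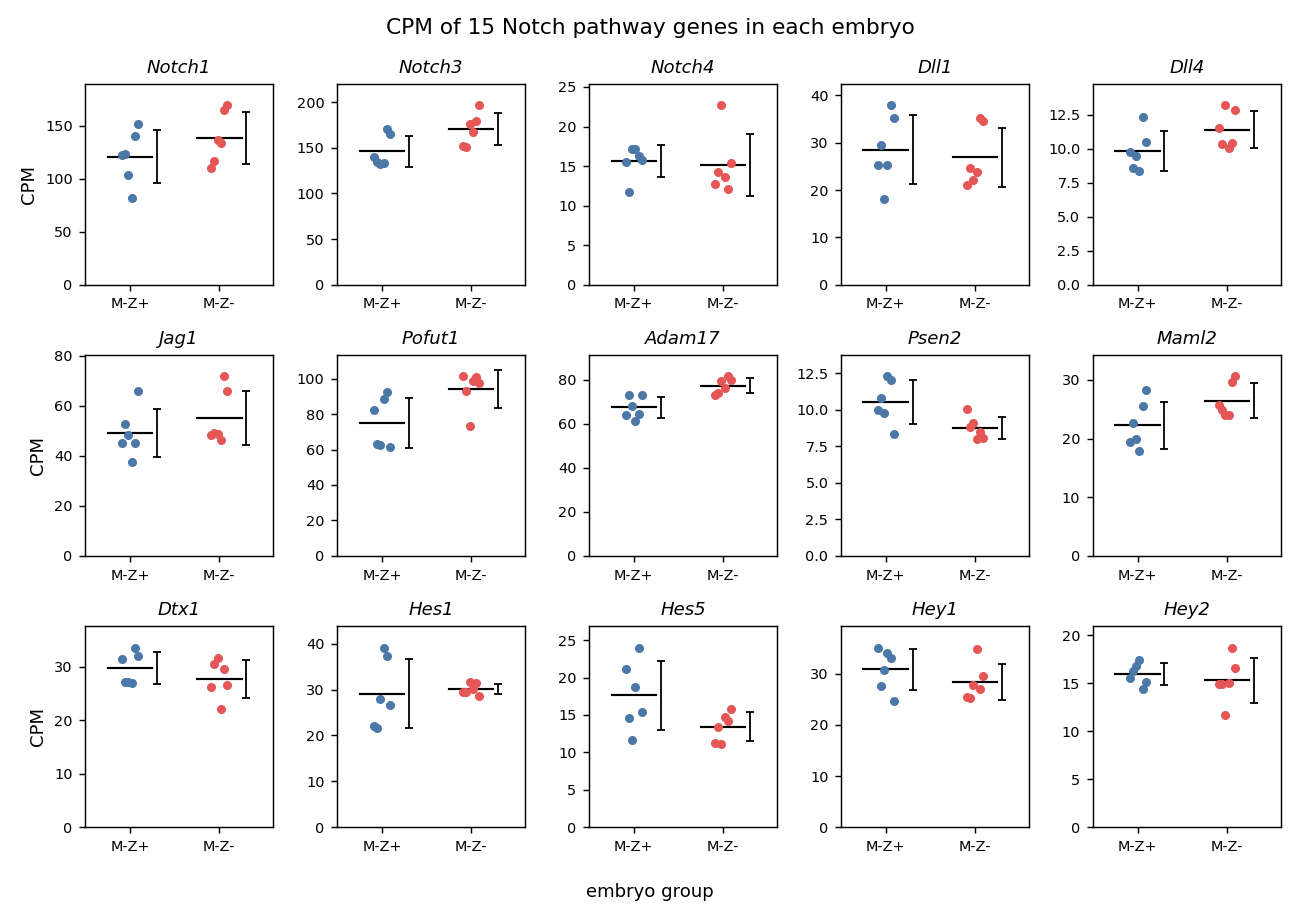
CPM of 15 genes of the pathway in each of the 6 M-Z+ (blue) and 6 M-Z- (red) embryos, with a black bar at each group mean and an error bar of 1 SD beside it. Each vertical axis starts at 0. The groups of *Adam17* do not overlap (61.4 to 73.1 against 73.2 to 81.6 CPM), and those of the other 14 genes do.

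Since an embryo mixes tissues, 4 genes with a known site of expression were set against the markers of that tissue across the 12 embryos, as deviations of log2(CPM + 0.5) from the group means. *Hes5* went with the 10 neural progenitor markers at r = 0.74 (permutation p 0.0056, 0.011 adjusted over the 4 relations) and rho = 0.73 (permutation p 0.0092, adjusted 0.033). It did so within the M-Z+ embryos (r = 0.71) and within the M-Z- embryos (r = 0.85). *Dll1* went with the same markers at r = 0.78 (permutation p 0.0024, adjusted 0.0095) and rho = 0.69 (permutation p 0.016, adjusted 0.033), with r = 0.72 and r = 0.87 within the groups. Both relations leaned on 2 embryos at the low end, M-Z+ 3 and M-Z- 1. Without them r was 0.49 for *Hes5* (permutation p 0.154) and 0.58 for *Dll1* (permutation p 0.082). Both stayed positive, but neither had a permutation p below 0.05. Leaving out embryos at the end of the range also leaves fewer embryos and a narrower range, which by itself tends to lower r.

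The neural progenitor markers were 1315 to 1560 CPM in sum in M-Z+ embryos and 1247 to 1481 CPM in M-Z- embryos. All 10 were tested, none was called, and their mean log2 level was 0.04 lower in M-Z- embryos (exact permutation p 0.656). The 10 neuron markers, in sum 1947 to 2458 CPM in M-Z+ embryos against 1845 to 2174 CPM in M-Z- embryos, were 0.16 lower on the mean log2 scale (exact permutation p 0.0498, or 0.174 adjusted over the 7 lists), with none called and 4 lower at an unadjusted p below 0.05. Some genes of the pathway that act in the developing nervous system were set beside these markers, not picked by a rule. They lay on either side of 0, at -0.39 for *Hes5*, -0.28 for *Dll3*, -0.16 for *Hes6*, -0.09 for *Dll1*, 0.05 for *Hes1*, 0.07 for *Numb* and 0.20 for *Notch1*. None of them was called, and the part of the neuron markers in these values was not tested.

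*Notch4* went with the 10 endothelium markers at r = 0.66 (permutation p 0.020, adjusted 0.027), but rho was 0.42 (permutation p 0.177, adjusted 0.236). Without the 2 embryos farthest from the median of the markers, M-Z- 3 and M-Z- 5, r was 0.17 (permutation p 0.648), so that the relation rested on these embryos. It was r = 0.52 within the M-Z+ and r = 0.71 within the M-Z- embryos. *Dll4* showed no such relation (r = 0.07, permutation p 0.833, and rho = -0.05, permutation p 0.885, each the same after adjustment). The endothelium markers were 472 to 527 CPM in sum in M-Z+ embryos against 495 to 587 CPM in M-Z- embryos, and 0.07 higher on the mean log2 scale in M-Z- embryos (exact permutation p 0.177). The embryo with the highest *Notch4* value, M-Z- 3, was also the highest for these markers.

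**Figure D5:**
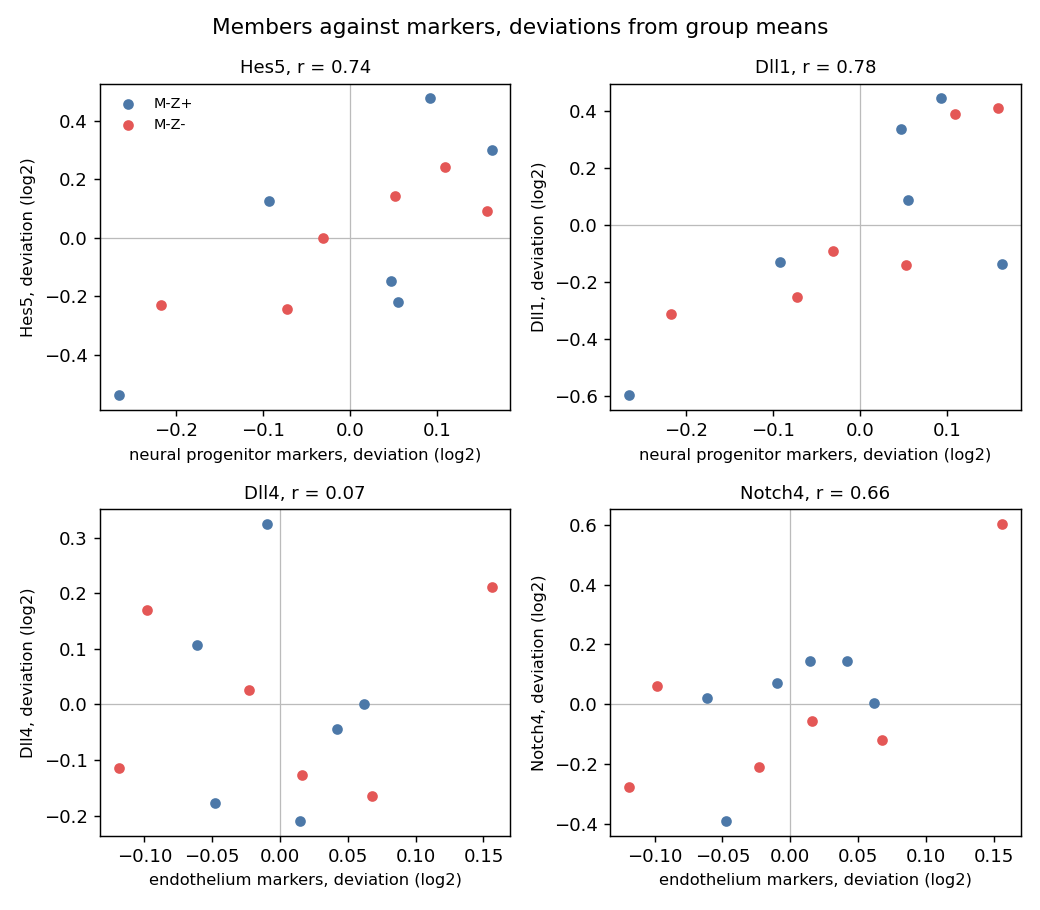
Deviation of log2(CPM + 0.5) from the group mean for *Hes5* and *Dll1* against the neural progenitor markers and for *Dll4* and *Notch4* against the endothelium markers, with 1 point per embryo (blue for M-Z+, red for M-Z-). Points rise together for *Hes5* (r = 0.74) and *Dll1* (r = 0.78), show no trend for *Dll4* (r = 0.07), and for *Notch4* (r = 0.66) depend on the embryo at the upper right.

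The rest of the pathway was read from a list of 44 further genes, of which 42 were tested and 1 was called. This was *Dlk1*, an imprinted gene for a Delta-like protein that lacks the domain for activating Notch and is regarded as a noncanonical ligand. It ranged from 300.02 to 541 CPM with a median of 424 in M-Z+ embryos and from 60.5 to 99.5 CPM with a median of 82.7 in M-Z- embryos. Every M-Z- embryo lay far below every M-Z+ embryo. *Dlk1* fell by 2.42 on the log2 scale (SE 0.16, adjusted p 5.44e-06 with edgeR), from 87.8 ± 14.3 to 16.9 ± 2.93 TPM (SD, n = 6 each). Before the fall it was above all 5 canonical ligands in level, and after it the level was near that of *Dll1*.

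No other gene of this list was called or passed an unadjusted p of 0.05. Over the 42 genes 19 were above 0 and 23 below, with log2 fold changes from -2.42 to 0.58 and a median of -0.01. Among the 8 further enzymes, *Xxylt1*, which extends O-linked sugars on Notch, had the smallest p and was at -0.09 (SE 0.07). Among the 10 ubiquitin ligases of ligands and receptors it was *Mib2*, which drives ligand endocytosis, at -0.15 (SE 0.07, unadjusted p 0.064 with edgeR). In the same class *Neurl1b*, another ligase that acts on ligands and named here after its values were seen, was at 0.58 (SE 0.29, 95% interval -0.05 to 1.21, unadjusted p 0.067 with edgeR), with 5 of 6 M-Z- embryos above every M-Z+ embryo. Among the 17 coregulators it was *Ncor1*, a corepressor, at 0.27 (SE 0.16), or 0.05 with the length slope as a covariate. Among the 4 proneural factors, which Hes proteins repress, it was *Neurog2* at -0.28 (SE 0.14, unadjusted p 0.064 with edgeR), and 3 of the 4 were below 0. *Hes2* and *Hes3* had at most 11 counts in any embryo and were not tested.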

How the data were processed

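RNA-seq of 12 E13.5 embryos was used, grouped by the sample titles, and 12 embryos with whole-genome bisulfite sequencing were left out. Raw counts per gene, not normalized, were deposited by the authors together with FPKM values that came back from the counts to within 0.1% for 100% of values over 0.01. Gene lengths were taken back from the FPKM values, which served no other purpose, and used to compute TPM. Per the labels, the processing notes name HISAT2 2.0.4, Trim Galore 0.4.1, Bismark 0.15.0, Bowtie2 2.2.9 and mm10. The sources used here give neither their roles nor the counting program or its use of strand. Of the 35 genes, 17 overlap another gene of the table, and reads there may have been split.

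R 4.3.3 with edgeR 4.0.16 (TMM, filterByExpr, glmQLFit and glmQLFTest, Benjamini-Hochberg adjustment over 16026 genes) was fitted to the 2 groups without covariates. Calls needed an adjusted p under 0.05 and a log2 fold change over 0.5 in size, a limit used in the study. DESeq2 1.42.0 was an alternative, and the others are named under the dependence on processing. Python 3.11.15 was used for exact permutation tests over all 924 divisions of the libraries and for correlations with 100000 permutations. The 35 genes and the lists were chosen with earlier results of these data known. Genes named with values per embryo were set by rule: *Notch1*, *Notch4*, *Dll1*, *Dll4*, *Jag1*, *Hes1*, *Hes5*, *Hey1*, *Hey2* and the gene of smallest unadjusted p in each role, and among the other pathway genes those called and the smallest p in each class. *Psen2* was added after its values were seen. The mean log2 level of the heart muscle markers was 0.08 higher in M-Z- embryos, with an exact permutation p of 0.597 (0.765 adjusted over the 7 lists). That of the liver markers was 0.23 lower, with an exact permutation p of 0.366 (0.640 adjusted). Counts were also simulated with 200 changed genes, and edgeR was read at an adjusted p under 0.05 without the fold limit. It recovered 46 of 100 genes changed 1.5-fold and 77 of 100 changed 2-fold over 15893 genes, with 3 false calls. These shares were not computed for calls with the fold limit or for fewer changed genes. Total counts per library were 12005145 to 19216288. The embryos are separate samples in the labels, which do not say whether they share a litter.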

Additional observations from a re-analysis of the deposited data

Results flagged for a closer look

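Each of the 35 genes, and several values beside them, was searched for an embryo that stands apart from the other 5 of its group by Dixon's criterion. This marked 3 of 82 groups of embryos, where chance marks about 1 in 20, or 4.1 here. *Notch4* was at 11.7 CPM in M-Z+ 2, below the other 5 M-Z+ embryos at 15.5 to 17.2 CPM. *Notch4* was also at 22.7 CPM in M-Z- 3, above the other 5 M-Z- embryos at 12.1 to 15.4 CPM. *Pofut1* was at 73.5 CPM in M-Z- 3, below the other 5 M-Z- embryos at 92.8 to 101 CPM.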

How the results depend on the processing

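No Notch pathway gene of the 35 was called under any alternative: DESeq2 in place of edgeR, no filter on low counts, the replicate number as a block, the length slope of the libraries as a covariate, an unadjusted p with the same fold limit, or each embryo left out in turn. The fold limit bears on this. Without 1 embryo the log2 fold changes of the 34 genes ran from -0.48 (*Hes5*) to 0.39 (*Pofut1*), inside the limit whatever the p. At the unadjusted p of the main fit 5 of the 34 genes passed, and the fold limit alone left none. Over all genes, the 13 calls became 21 with the replicate block, 23 with the length slope, 37 with DESeq2 and 247 at the unadjusted p, and 11 to 15 without 1 embryo, while the further pathway list had 1 call whichever embryo was left out. Of the 34 genes, 22 kept their sign throughout. With the length slope *Notch4* was at 0.0045 and *Jag1* at -0.026, with the replicate block *Maml3* was at 0.0062, and with DESeq2 *Dtx3* was at 0.0013.

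Without 1 embryo the sign of genes near 0 could turn: *Dll1* -0.19 to 0.0047, *Jag2* -0.082 to 0.0027, *Lfng* -0.040 to 0.072, *Psenen* -0.0094 to 0.188, *Ncstn* -0.018 to 0.030, *Maml3* -0.091 to 0.058, *Dtx3* -0.095 to 0.057, *Hes1* -0.035 to 0.148, *Hey2* -0.13 to 0.0073, *Heyl* -0.034 to 0.092 and *Zfp57* -0.24 to 0.0042. Leaving out 1 embryo moved 26 of the 34 genes by over 1.5 times, *Notch1* between 0.11 and 0.27 among them. The median of the 34 ran from -0.030 to 0.032, *Hes5* from -0.48 to -0.28 and *Adam17* from 0.17 to 0.22. The correlation r ran from 0.57 to 0.80 for *Hes5*, 0.66 to 0.92 for *Dll1*, -0.30 to 0.24 for *Dll4* and 0.29 to 0.77 for *Notch4*. The adjusted permutation p passed 0.05 for *Hes5* (0.092) and *Dll1* (0.062) without M-Z+ 3, and for *Notch4* without M-Z+ 3 (0.062), M-Z- 3 (0.391) or M-Z- 5 (0.069). The length slope difference ran from 0.031 to 0.077, with an exact permutation p of 0.039 without M-Z+ 6. The cause of these shifts was not tested.

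The labels do not say that equal replicate numbers pair embryos. Deviations of same-numbered embryos correlated at 0.10, 0.02, 0.30, 0.33, 0.13 and 0.64, all of them positive. With 6 candidates for each library, 5 of 12 libraries went best with their own number. Whether equal numbers mark a shared litter or batch was not tested. The main fit did not pair the embryos because the labels do not, and the replicate block was run as an alternative. *Hes7*, with 3 to 19 counts per embryo, was left out of the main fit by the filter on low counts.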
